A study of Homo sapiens with 6 samples.

Results

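The genes described here are 10 that encode subunits of voltage-gated calcium channels: CACNA1A, CACNA1C, CACNA1D, CACNA1E, CACNA1H, CACNA2D1, CACNA2D2, CACNB1, CACNB3 and CACNB4. They were taken by symbol from a table of 26490 genes, with CACNA1E as the lead gene because it had one of the largest rises in the comparison reported here. The same contrast therefore chose the genes and gives their differences, so these differences are described with their errors and without p-values. The wider family holds 26 genes in the table. RNA was sequenced from SW403, an established human colon adenocarcinoma line, in 3 control libraries (genotype given as WT) and 3 libraries of cells with IRS2 knockdown (genotype given as IRS2_knockdown). IRS2 encodes insulin receptor substrate 2, an adaptor that carries signals from the insulin and IGF1 receptors. Both groups were grown for 24 h in DMEM with 10% fetal bovine serum and received no treatment. The count columns are headed DMEM_NS and DMEM_IRS2KO, where the titles say control and knockdown. How IRS2 was lowered is not given in the sources used here, nor is the number of lines or clones behind each group. The spread between libraries is therefore the spread between cultures and may be partly technical.

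Voltage-gated calcium channels open when the membrane depolarizes and let calcium into the cell. Each has a pore-forming alpha1 subunit, which sets the current type, and high-voltage-activated channels add an intracellular beta subunit and an extracellular alpha2delta subunit that raise the number of channels at the surface and tune their gating. The channels couple electrical activity to contraction, secretion and transcription, and are best known in neurons, muscle and endocrine cells, including the hormone-secreting cells of the gut epithelium.

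In these cells, transcripts of CACNA1E were 4.45-fold higher after IRS2 knockdown, while those of the alpha2delta genes CACNA2D1 and CACNA2D2 were 3.25-fold and 2.81-fold lower. CACNB4, CACNB1 and CACNA1C were higher by smaller factors of 1.65, 1.32 and 1.29. CACNA1H and CACNB3 were expressed without passing the threshold, and CACNA1D and CACNA1A were close to the limit of detection. The 6 genes past the threshold thus differed in both directions, and the largest differences were a pore-forming gene up and a pair of alpha2delta genes down.

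The control libraries held 11816973 to 12585013 counts and the knockdown libraries 14329348 to 18114656, so the groups did not overlap in depth and the knockdown libraries were the deeper. Values are given as CPM, the counts of a gene scaled to a standard library total, and a count of 0 allows up to 3 counts, which is 0.166 to 0.254 CPM in these libraries and covers counting error only, since PCR-amplified reads are not independent molecules. IRS2 itself fell from 33.2 ± 1.42 to 12.4 ± 0.535 CPM (n = 3 each, SD; a log2 difference of -1.39 ± 0.07 SE, edgeR adjusted p 3.12e-11). In the colon epithelium list, KRT8, KRT18, KRT19, EPCAM, CDX2 and VIL1 were high enough to test, while CDH1 and CDH17 held 15 and 19 counts in all 6 libraries together and KRT20, CDX1 and CEACAM5 held none. The libraries are of bulk RNA, so fewer cells with a transcript and less transcript per cell cannot be told apart.

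The stretch of DNA around the transcription start was examined for 9 of the 10 genes, those with an entry in RefSeq promoter windows of 300 bases (250 before to 50 after the start, GRCh38.p14). The set of such windows for all genes numbered 35116, and 16 of them belonged to these genes. The windows of the gene with the largest rise, of another pore-forming gene with a small difference and of the alpha2delta gene with the largest fall are printed from 5′ to 3′ on the strand of the gene, because they differ in base composition. CpG dinucleotides are in capitals. CACNA1E is at chr1:181483267-181483566 on the plus strand, CACNA1C at chr12:2052737-2053036 on the plus strand, and CACNA2D1 at chr7:82443907-82444206 on the minus strand.
CACNA1E: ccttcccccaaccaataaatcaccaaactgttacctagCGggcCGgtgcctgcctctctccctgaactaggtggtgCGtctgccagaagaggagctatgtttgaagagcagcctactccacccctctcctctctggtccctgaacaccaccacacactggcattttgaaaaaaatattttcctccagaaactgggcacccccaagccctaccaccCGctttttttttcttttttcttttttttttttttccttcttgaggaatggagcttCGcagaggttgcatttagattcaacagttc
CACNA1C: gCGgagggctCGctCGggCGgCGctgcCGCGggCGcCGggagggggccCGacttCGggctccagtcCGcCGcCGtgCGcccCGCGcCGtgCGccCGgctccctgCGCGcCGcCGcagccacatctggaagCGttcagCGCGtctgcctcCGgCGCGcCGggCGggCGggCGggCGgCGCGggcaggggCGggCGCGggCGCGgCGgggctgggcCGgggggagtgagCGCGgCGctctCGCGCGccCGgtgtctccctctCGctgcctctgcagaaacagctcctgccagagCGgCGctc
CACNA2D1: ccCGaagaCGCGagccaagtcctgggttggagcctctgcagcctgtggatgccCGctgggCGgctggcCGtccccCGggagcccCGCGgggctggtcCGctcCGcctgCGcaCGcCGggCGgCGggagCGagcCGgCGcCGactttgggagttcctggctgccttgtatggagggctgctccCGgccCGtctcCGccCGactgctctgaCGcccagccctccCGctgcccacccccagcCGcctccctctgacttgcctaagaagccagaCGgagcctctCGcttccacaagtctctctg
The CACNA1E window held 5 CpG and 48% G plus C. By contrast the CACNA1C window held 54 CpG and 82.3%, and the CACNA2D1 window 29 CpG and 72.3%. Over all windows the medians were 14 CpG and 58.7%, and 33.7% of windows had no more CpG than that of CACNA1E. A low CpG content was not particular to CACNA1E, since 1 of the CACNA2D2 windows also held 5 CpG and 1 of the CACNB4 windows held 2. CACNA1E had only 1 window, while the GENCODE annotation lists 11 transcripts of it, and any start outside that window was not examined.

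Motifs were searched by exact letters on both strands. The TATA box was searched as TATAAA, the CCAAT box by the letters of its name and the GC box as GGGCGG. Sites of transcription factors were searched as CACGTG for the E-box, TGACGTCA for the cyclic AMP response element and CTTTGAT for the TCF site, and no motif holds another. The CACNA1E window had no GC box, which is found in 45% of all windows, and held 1 CCAAT box, found in 34.6%, at 239 bases before the start. The CACNA1C window had 6 GC boxes and the CACNA2D1 window 3. None of the 16 windows held the TATA box, the E-box, the cyclic AMP response element or the TCF site, whose letters are found in 11.5%, 7.26%, 1.85% and 2.62% of all windows. These matches describe the letters of the windows only.

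Among the pore-forming genes, CACNA1E showed the largest difference. CACNA1E (chromosome 1, 181286826 to 181782397, plus strand, GRCh37) encodes the Cav2.3 subunit of R-type currents. Control libraries held 30, 34 and 25 counts of it and knockdown libraries 160, 181 and 179. This was 2.38, 2.71 and 2.12 CPM in control and 11.2, 10.6 and 9.88 CPM in knockdown. The lowest knockdown library lay more than 3 times above the highest control library, and the values within each group were close together. The means were 2.40 ± 0.296 and 10.6 ± 0.644 CPM (SD, n = 3 each), a log2 fold change of 2.15 ± 0.15 (SE). CACNA1E ranked 8 by log2 fold change among the 13832 genes tested, and 3 among the 11580 whose mean count was 50 or more. Leaving out any 1 library gave log2 fold changes of 2.08 to 2.26, and thinning all libraries to the depth of the smallest gave 2.18.

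CACNA1C, on chromosome 12 (2079938 to 2807116, plus strand, GRCh37), encodes the Cav1.2 subunit of L-type currents. Its control libraries had 127, 132 and 127 counts and its knockdown libraries 201, 235 and 217. On the CPM scale these were 10.1, 10.5 and 10.7 against 14.0, 13.8 and 11.98, so the lowest knockdown library stood above the highest control library. The means were 10.4 ± 0.332 and 13.3 ± 1.12 CPM (SD, n = 3 each), and the log2 fold change was 0.37 ± 0.10 (SE).

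CACNA1H encodes Cav3.2, a low-voltage-activated T-type subunit (chromosome 16, 1203106 to 1271771, plus strand, GRCh37). Control libraries held 32, 32 and 31 counts of it and the deeper knockdown libraries 31, 25 and 29. The CPM values were 2.54, 2.55 and 2.62 in control and 2.16, 1.46 and 1.60 in knockdown. All knockdown values were below the control values, with knockdown library 1 nearest to them. The means were 2.57 ± 0.0452 and 1.74 ± 0.370 CPM (SD, n = 3 each) and the log2 fold change was -0.54 ± 0.23 (SE), which did not pass the threshold. Without knockdown replicate 1 the log2 fold change was -0.71 and passed it.

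The remaining pore-forming genes were near the limit of detection. CACNA1D, which encodes the Cav1.3 L-type subunit, had 13, 6 and 11 counts in control and 4, 7 and 6 in knockdown. In CPM, control libraries were at 1.03, 0.478 and 0.931 and knockdown libraries at 0.279, 0.410 and 0.331, with no overlap but a narrow gap. The low-count filter removed the gene, so no fold change was fitted. Exons of CACNA1D overlap those of CHDH on the opposite strand over 1399 bases, 7.3% of its exon length. The strand setting of the counting is not given, so reads of the 2 genes could be mixed there. CHDH had a mean of 681 counts per library, against 7.83 for CACNA1D. The part of CHDH reads in the CACNA1D counts was not tested. Other channel genes also overlap annotated genes, among them CACNA2D2 over 9.3%, CACNB4 over 6.0% and CACNB1 over 5.8% of exon length. The overlapping genes in those cases have no row of counts. CACNA1A, which encodes the Cav2.1 subunit of P/Q-type currents, had 3, 2 and 1 counts in control and the same numbers in knockdown, at or below the level that a count of 0 allows.

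**Figure D1:**
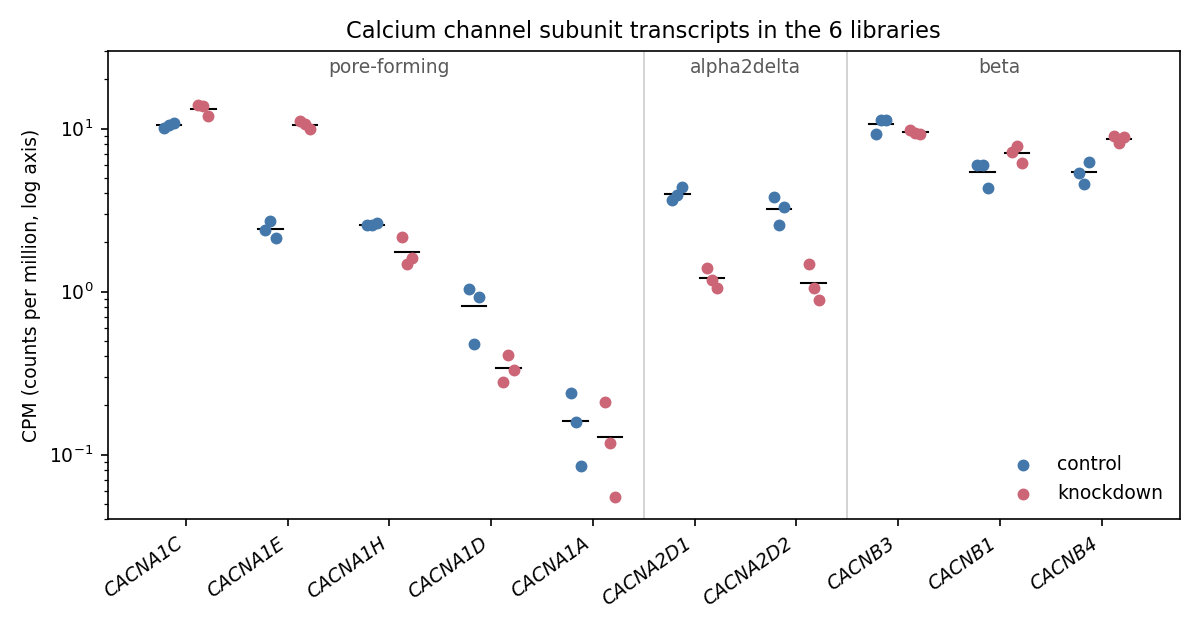
CPM (log axis) of the 10 channel genes in each library. Points are single libraries, 3 control (blue) and 3 knockdown (red), horizontal lines are group means, and grey lines divide pore-forming, alpha2delta and beta genes. CACNA1E is separated upward, with control libraries at 2.12 to 2.71 and knockdown libraries at 9.88 to 11.2 CPM, and CACNA2D1 and CACNA2D2 are separated downward.

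The alpha2delta genes among the 10 were both lower after knockdown. CACNA2D1 (chromosome 7, 81575760 to 82073272, minus strand, GRCh37) encodes alpha2delta-1, a subunit that traffics channels to the surface and binds gabapentin. It had 46, 49 and 52 counts in control and 20, 20 and 19 in knockdown. These were 3.66, 3.90 and 4.40 CPM in control against 1.40, 1.17 and 1.05 CPM in knockdown, with a wide gap between the groups. The means were 3.99 ± 0.380 and 1.21 ± 0.176 CPM (SD, n = 3 each), and the log2 fold change was -1.70 ± 0.22 (SE).

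CACNA2D2 (chromosome 3, 50400044 to 50541675, minus strand, GRCh37) encodes alpha2delta-2, the other alpha2delta protein that binds gabapentin. Its counts were 48, 32 and 39 in control and 21, 18 and 16 in knockdown. The CPM values were 3.81, 2.55 and 3.30 in control and 1.47, 1.05 and 0.883 in knockdown. Control library 2 was the lowest control, and it was still above every knockdown library. The means were 3.22 ± 0.637 and 1.13 ± 0.299 CPM (SD, n = 3 each), and the log2 fold change was -1.49 ± 0.25 (SE).

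The beta genes gave smaller differences. CACNB4 (chromosome 2, 152689285 to 152955681, minus strand, GRCh37), which encodes the beta4 subunit known mainly from brain, had 67, 57 and 74 counts in control and 129, 139 and 160 in knockdown. In CPM these were 5.32, 4.54 and 6.26 against 9.002, 8.14 and 8.83, and the groups did not overlap. The means were 5.37 ± 0.863 and 8.66 ± 0.454 CPM (SD, n = 3 each), and the log2 fold change was 0.72 ± 0.13 (SE).

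CACNB1 (chromosome 17, 37329706 to 37353955, minus strand, GRCh37), which encodes the beta1 subunit of the skeletal muscle channel among others, had 75, 75 and 51 counts in control and 103, 133 and 111 in knockdown. Its CPM values were 5.96, 5.97 and 4.32 in control and 7.19, 7.79 and 6.13 in knockdown. Control library 3 was low, and knockdown library 3 lay only just above control libraries 1 and 2. The means were 5.42 ± 0.952 and 7.04 ± 0.843 CPM (SD, n = 3 each), and the log2 fold change was 0.40 ± 0.15 (SE). The gene did not pass the threshold without control replicate 1, control replicate 3, knockdown replicate 1 or knockdown replicate 2, where the log2 fold changes were 0.47, 0.27, 0.39 and 0.32. It also did not pass in DESeq2's Wald test, where the log2 fold change was 0.40.

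CACNB3 (chromosome 12, 49207577 to 49222724, plus strand, GRCh37), which encodes the beta3 subunit, had 116, 141 and 134 counts in control and 140, 160 and 167 in knockdown. The CPM values of 9.22, 11.2 and 11.3 in control overlapped those of 9.77, 9.38 and 9.22 in knockdown. The means were 10.6 ± 1.19 and 9.45 ± 0.284 CPM (SD, n = 3 each), and the log2 fold change of -0.13 ± 0.11 (SE) did not pass the threshold.

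Of the 10 genes, 8 passed the low-count filter, and the edgeR threshold (adjusted p under 0.05 over all genes) was passed by 4 in the higher and 2 in the lower direction. Over all tested genes 38.5% passed, with 19.3% higher and 19.2% lower. Since the genes were chosen from this contrast, nothing is read from their count. CACNB1 lay just inside the threshold and CACNA1H was the nearest outside it. Groups did not overlap in CPM for 7 of the 8 tested genes, against 48.4% of all tested genes (19.6% higher and 28.8% lower). The median log2 fold change of the 8 was 0.12, against -0.0039 over all tested genes. Abundance matters for such counts: among 2982 tested genes with mean counts from 29 to 174, the range of these 8 genes, 32.1% passed the threshold (9.52% higher and 22.5% lower). Of the same 2982 genes, 0.939% were called and at least 2-fold higher, as CACNA1E was, and 8.55% were called and at least 2-fold lower, as CACNA2D1 and CACNA2D2 were. Tested genes were also divided into 5 groups of near-equal size by the length of their longest transcript. Of the 8 genes, 5 belong to the group with the longest transcripts (6216 to 109224 bases). The median log2 fold change of all tested genes in that group was 0.03.

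**Figure D2:**
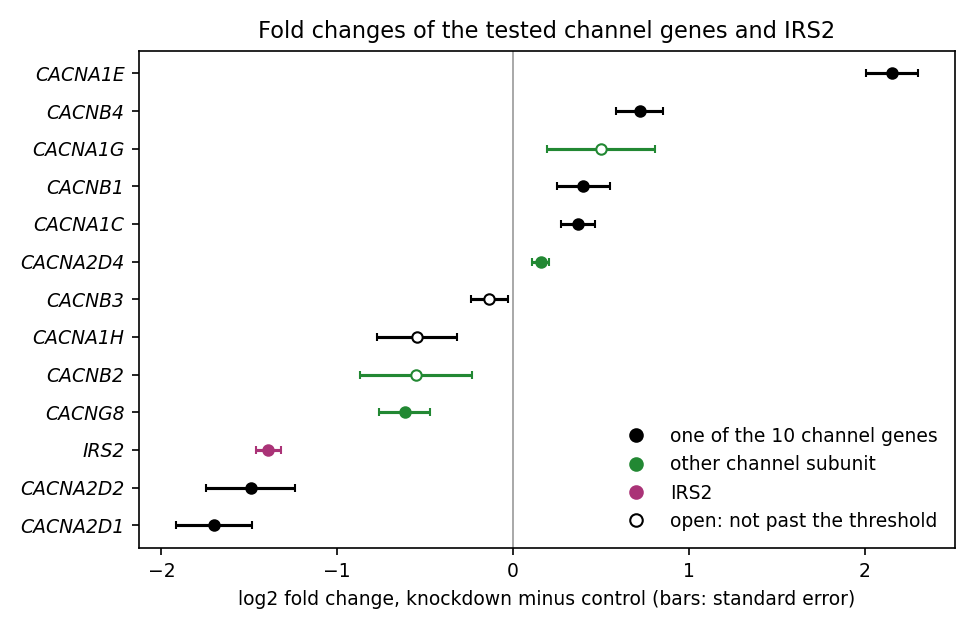
Log2 fold changes (knockdown minus control) with standard errors for the tested channel genes and IRS2. Black points are genes of the 10, green points are other channel subunits, the purple point is IRS2, and open points did not pass the threshold. CACNA1E lies at 2.15, CACNA2D1 at -1.70 and CACNA2D2 at -1.49, while the other channel genes lie between -0.62 and 0.72.

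Levels of different genes were compared as CPM per kilobase of exon union. In control libraries the order of the 10 genes was CACNB3 (1.48 ± 0.167), CACNB1 (0.763 ± 0.134), CACNA2D2 (0.495 ± 0.0979), CACNA2D1 (0.435 ± 0.0414), CACNA1C (0.409 ± 0.0130), CACNA1H (0.298 ± 0.00525), CACNB4 (0.149 ± 0.0240) and CACNA1E (0.109 ± 0.0134), followed by CACNA1D and CACNA1A at 0.0424 and 0.00373 CPM per kilobase (SD, n = 3 each). The spreads of CACNA2D2, CACNA2D1 and CACNA1C overlapped on this scale, so their order was not resolved there. In knockdown libraries CACNA1E stood at 0.479 ± 0.0292 CPM per kilobase, beside CACNA1C at 0.519 ± 0.0437, and these also overlapped within their spread on this scale. CACNA2D2 and CACNA2D1 then stood at 0.174 ± 0.0460 and 0.131 ± 0.0192 CPM per kilobase. The order depended on the length used. Per kilobase of longest transcript, CACNA1C was at 0.752 ± 0.0239 in control, above CACNA2D2 at 0.565 ± 0.112 and CACNA2D1 at 0.514 ± 0.0490 (SD, n = 3 each). In knockdown CACNA1C was then at 0.955 ± 0.0803 and CACNA1E at 0.643 ± 0.0392, apart by more than their spread. The annotated exon unions of CACNA1A and CACNB4 are several times longer than their longest transcripts, which lowers their values on this scale. With longest transcripts CACNB4 was at 0.625 ± 0.100 in control and 1.01 ± 0.0528 in knockdown.

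The make-up of each class was then followed across libraries. Of the summed per-kilobase signal of all 10 pore-forming genes, CACNA1E held 10.1%, 12.1% and 9.04% in control and 31.8%, 33.8% and 34.3% in knockdown. The share of CACNA1E was thus higher in every knockdown library, with means of 10.4 ± 1.55% and 33.3 ± 1.32% (SD, n = 3 each). CACNA1C held 38.9 ± 1.88% and 36.0 ± 1.74%, and CACNA1H 28.4 ± 0.799% and 13.9 ± 1.90% in control and knockdown. Per kilobase of longest transcript these shares were 49.2% and 45.2% for CACNA1C and 20.5% and 10.0% for CACNA1H. Shares of a sum fall when another gene in it rises. CACNA1C itself was higher in knockdown, at 13.3 against 10.4 CPM, and the lower CPM of CACNA1H did not pass the threshold. The summed counts of the pore-forming genes were 18.2 ± 0.329 CPM in control against 28.2 ± 2.39 CPM in knockdown (SD, n = 3 each), and CACNA1E accounted for most of that difference.

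Within the alpha2delta class CACNA2D1 and CACNA2D2 fell while CACNA2D4, an alpha2delta gene outside the 10, was higher at 49.8 against 45.5 CPM. The summed counts of the class were 53.6 ± 0.407 CPM in control against 52.6 ± 0.798 CPM after knockdown (SD, n = 3 each). Most of this class was CACNA2D4, with 84.4 ± 1.77% of the per-kilobase signal in control and 94.3 ± 1.42% in knockdown. In the beta class CACNB3 held 58.5 ± 4.08% and 50.04 ± 1.49%, CACNB1 30.3 ± 5.81% and 37.4 ± 3.13%, and CACNB4 5.95 ± 1.11% and 9.13 ± 0.714% (SD, n = 3 each). The share of CACNB4 depended on the length used. Per kilobase of longest transcript it was 13.9 ± 2.33% in control and 20.8 ± 1.28% in knockdown (SD, n = 3 each).

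**Figure D3:**
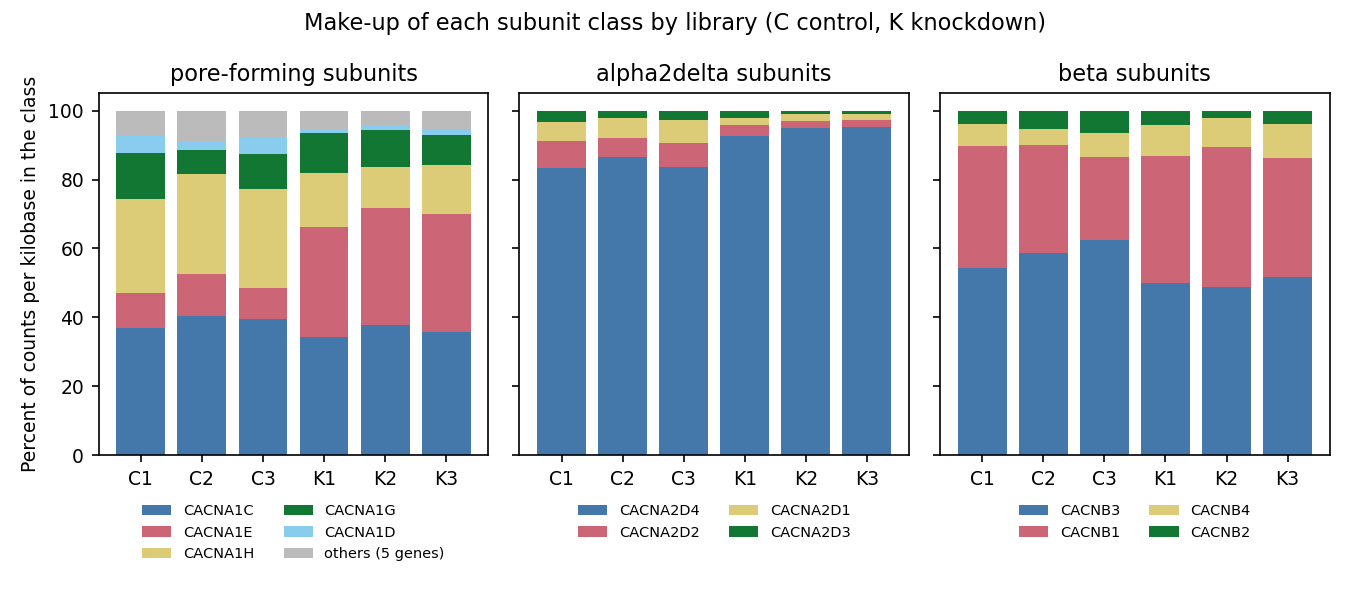
Percent of the summed counts per kilobase of each class taken by each gene in every library, C for control and K for knockdown. Each bar adds to the whole class. CACNA1E takes 9.04% to 12.1% of the pore-forming class in control and 31.8% to 34.3% in knockdown, and CACNA2D4 is the main alpha2delta gene in all 6 libraries.

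The other 16 genes of the family supplied 4 that passed the low-count filter, with 1 higher, 1 lower and 2 not past the threshold (38.5% of all tested genes were called). CACNA2D4, which encodes alpha2delta-4 of photoreceptor channels, was higher at 49.8 ± 0.290 against 45.5 ± 0.743 CPM (n = 3 each, SD; a log2 difference of 0.16 ± 0.05 SE, edgeR adjusted p 0.0132). CACNG8, named for channel gamma subunits but better known as an auxiliary subunit of AMPA receptors, was lower at 4.53 ± 0.372 against 7.08 ± 1.0 CPM (n = 3 each, SD; a log2 difference of -0.62 ± 0.15 SE, edgeR adjusted p 0.00235). CACNA1G, the Cav3.1 T-type gene, did not pass, with 18, 9 and 13 counts in control and 27, 26 and 21 in knockdown (log2 fold change 0.50 ± 0.31 SE, edgeR adjusted p 0.219). The beta gene CACNB2 did not pass either, with 13, 20 and 22 counts against 18, 11 and 20 (log2 fold change -0.55 ± 0.32 SE, edgeR adjusted p 0.187). Below the filter, CACNA2D3 had 56 counts in the 6 libraries together, CACNG4 34, CACNA1B 24, CACNA1I 21, CACNG6 13 and CACNA1S 12. CACNG1, CACNG2, CACNG3 and CACNG5 had no count in any library. The CACNA2D4 difference did not pass in DESeq2's Wald test, where its adjusted p was 0.0798.

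Proteins that bind or regulate the channels formed a list of 22 genes, of which 15 were tested, 2 were higher, 1 was lower and 12 did not pass, against 38.5% called among all tested genes. GEM, a small GTPase that inhibits channels through the beta subunit, was higher by 0.51 ± 0.16 on the log2 scale (SE; edgeR adjusted p 0.0163). NEDD4L, a ubiquitin ligase, was higher by 0.14 ± 0.05 (SE; edgeR adjusted p 0.0267). RIMS2, which tethers channels at release sites, had a log2 fold change of -0.87 ± 0.32 (SE; edgeR adjusted p 0.0362), and its adjusted p was 0.0544 with a replicate block. Each of the 3 calls was lost without certain single libraries. GEM did not pass without control replicate 1, control replicate 2 or knockdown replicate 2, with log2 fold changes of 0.47, 0.50 and 0.41. NEDD4L did not pass without control replicates 1 or 2 or knockdown replicates 1 or 2, with 0.11, 0.15, 0.14 and 0.12. RIMS2 did not pass without control replicates 2 or 3 or knockdown replicates 2 or 3, with -0.90, -0.71, -0.65 and -0.80. The number past the threshold was 1 without control replicate 1, and 0 without control replicate 2 or without knockdown replicate 2, where 3 genes had an unadjusted p under 0.05 in edgeR's test each time. DESeq2's Wald test also called 0, with 2 at an unadjusted p under 0.05.

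Other routes of calcium entry across the plasma membrane gave 4 higher and 1 lower gene among 15 tested of 24, with a median log2 fold change of 0.10 (38.5% of all tested genes were called). The mechanically gated channel gene PIEZO1 was higher by 0.39 ± 0.04, the store-operated channel gene ORAI1 by 0.32 ± 0.06 and its activator STIM1 by 0.20 ± 0.05 on the log2 scale (SE), with edgeR adjusted p-values of 2.72e-07, 0.000366 and 0.00197. TRPV4, an osmosensitive cation channel gene, had a log2 fold change of -0.82 ± 0.32 (SE; edgeR adjusted p 0.0468). TRPV4 did not pass with a replicate block (edgeR adjusted p 0.0667), nor without any 1 of the libraries other than knockdown replicate 2 (log2 fold changes of -0.90 to -0.68).

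Genes of calcium stores gave 6 higher and 2 lower among 19 tested of 20, a share near the 38.5% of all tested genes, with a median log2 fold change of 0.09. ATP2A3, a pump that fills the endoplasmic reticulum, was higher by 0.71 ± 0.10, and the release channel genes ITPR2 and ITPR3 by 0.36 ± 0.07 and 0.34 ± 0.04 on the log2 scale (SE; edgeR adjusted p 2.33e-05, 0.000232 and 3.45e-06). MICU3, a regulator of mitochondrial calcium uptake, fell from 14, 18 and 11 counts to 2, 3 and 2, a log2 fold change of -2.93 ± 0.46 (SE; edgeR adjusted p 4.85e-05). TMCO1 fell by 0.17 ± 0.05 on the log2 scale (SE; edgeR adjusted p 0.00782).

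Calcium export gave 1 higher and 3 lower genes among 6 tested of 13, with a median log2 fold change of -0.47. Over all tested genes 19.3% were higher and 19.2% lower, and 6 genes are too few to set against that share. SLC8A1, the sodium-calcium exchanger gene, fell from 2.98 ± 0.310 to 0.711 ± 0.210 CPM (n = 3 each, SD; a log2 difference of -2.03 ± 0.27 SE, edgeR adjusted p 7.98e-06). Of the plasma membrane pump genes, ATP2B4 fell by 0.63 ± 0.09 and ATP2B1 rose by 0.27 ± 0.04 on the log2 scale (SE; edgeR adjusted p 9.04e-06 and 4.28e-05). SLC24A1 fell by 0.54 ± 0.15 (SE; edgeR adjusted p 0.00797), and had a log2 fold change of -0.34 that did not pass without control replicate 3.

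Genes that act on calcium signals gave 7 higher and 3 lower among 27 tested of 30, a share close to the 38.5% of all tested genes, with a median log2 fold change of 0.08. The transcription factor genes NFATC2 and NFATC1 differed in opposite directions, by 0.41 ± 0.07 and -0.48 ± 0.14 on the log2 scale (SE; edgeR adjusted p 0.000118 and 0.0119). Without control replicate 3, NFATC1 had a log2 fold change of -0.38 and did not pass. CRTC1 and CAMK4 were higher by 0.32 ± 0.09 and 0.30 ± 0.07, and CAMK1 and CAMK2G fell by 0.37 ± 0.09 and 0.24 ± 0.07 (SE). Their edgeR adjusted p-values were 0.00664, 0.00199, 0.00309 and 0.0116.

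Regulated secretion, the step that calcium entry triggers in neurons and endocrine cells, gave 4 higher and 6 lower genes among 16 tested of 20, with a median log2 fold change of -0.11, where 19.3% of all tested genes were higher and 19.2% lower. The vesicle priming genes CADPS and CADPS2 differed in opposite directions, by 0.50 ± 0.09 and -1.58 ± 0.28 on the log2 scale (SE; edgeR adjusted p 0.000291 and 0.000149). STX1A and VAMP2, which encode SNARE proteins, were higher by 0.28 ± 0.08 and 0.24 ± 0.06 (SE; edgeR adjusted p 0.00803 and 0.00182). The complexin genes CPLX2 and CPLX1 fell by 0.83 ± 0.12 and 0.64 ± 0.22 (SE; edgeR adjusted p 1.64e-05 and 0.0273). CPLX1 did not pass without control replicate 1, control replicate 2, knockdown replicate 1 or knockdown replicate 2, with log2 fold changes of -0.66, -0.47, -0.53 and -0.67. In DESeq2's Wald test, CPLX1, STX1A, GEM, NEDD4L, RIMS2, TRPV4, NFATC1 and CAMK2G did not pass (adjusted p 0.0512 to 0.194).

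**Figure D4:**
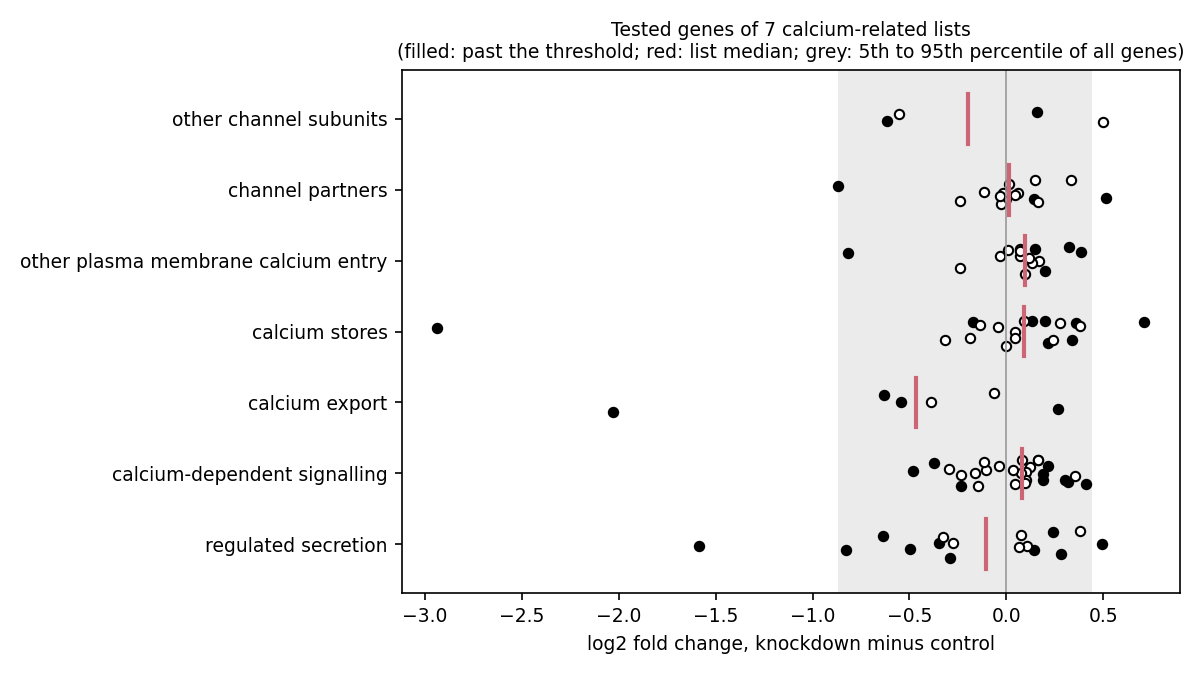
Log2 fold changes (knockdown minus control) of the tested genes in 7 calcium-related lists, one point per gene. Filled points passed the threshold, red lines are list medians, and the grey band runs from the 5th to the 95th percentile of all tested genes (-0.87 to 0.44). The list medians lie between -0.47 and 0.10. The band describes single genes, so it is not a scale for the medians.

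The gene profiles most like that of CACNA1E over the 6 libraries were IL32, MYO1F, BIRC3, SMCO2 and EDAR. Likeness was the root mean square distance between log2 CPM values centred on the control mean, among 11579 other genes whose mean count was 50 or more, and the distances were 0.160, 0.204, 0.253, 0.316 and 0.343. IL32 was at 2.35 ± 0.587 CPM in control and 10.3 ± 0.780 in knockdown, MYO1F at 2.57 ± 0.189 and 9.89 ± 0.323, and BIRC3 at 2.41 ± 0.578 and 9.54 ± 0.576 (SD, n = 3 each). These 3 and CACNA1E had similar CPM in each library as well as similar differences. CPM is not scaled for gene length, so transcript levels of these genes were not compared with each other. The measure was taken over the same libraries that chose CACNA1E.

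Markers of cell types in which the channels are best known moved as follows. The 13 neuroendocrine genes summed to 13.9 to 15.8 CPM in control and 10.2 to 13.0 CPM in knockdown, with 3 tested, of which DDC was higher, SYP lower and CHGB not past the threshold. The 10 neuronal genes summed to 128 to 129 CPM in control and 109 to 120 CPM in knockdown. NEFL and NEFM were lower among 5 tested, and STMN2 had no count. Most of the neuronal sum was TUBB3, at 111 ± 1.61 and 106 ± 6.57 CPM (SD, n = 3 each), which did not pass the threshold. The 6 smooth muscle genes summed to 74.4 to 80.6 CPM in control and 90.8 to 93.5 CPM in knockdown, and nearly all of that was SMTN, at 70.3 ± 2.50 and 85.8 ± 1.99 CPM (SD, n = 3 each). Of the 3 smooth muscle genes tested, SMTN was higher, TAGLN was lower and ACTA2 did not pass the threshold. The 7 fibroblast genes summed to 27.7, 10.4 and 8.97 CPM in the control libraries and 5.80 to 7.29 CPM in knockdown. Control library 1 stood apart, with COL1A1 at 15.3 CPM against 5.73 and 5.67 in the other control libraries, and without it the control sums were 8.97 and 10.4 CPM. The neuronal, neuroendocrine and fibroblast sums were thus lower after knockdown, and the smooth muscle sum was higher. The sum of the colon epithelium genes was 2364 to 2456 CPM in knockdown against 2537 to 2637 CPM in control. Most of that sum was KRT8 and KRT18, which did not pass the threshold. Of the 6 colon epithelium genes tested, CDX2 was higher, KRT19 and EPCAM were lower, and VIL1 did not pass either. The part of these cell types in the channel values was not tested.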

How the data were processed

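RNA-seq libraries of 3 control and 3 IRS2 knockdown cultures of SW403 cells were made from 1000 ng of total RNA with PCR amplification, per the labels' protocols. The authors deposited whole-number counts per gene symbol. The submitters' processing notes name STAR 2.6.1a, Salmon, DESeq2 and hg19, with no role or order, and the annotation and strand setting are not given in the sources used here. A table of normalized values was not used here.

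Counts were tested with edgeR 4.0.16 in R 4.3.3 (TMM factors, filterByExpr, quasi-likelihood F-test, group as the only term), with Benjamini-Hochberg adjustment over 13832 genes and a threshold of 0.05. Each standard error is the size of the log2 fold change over the root of its F statistic. An exact permutation test of 3 against 3 libraries has a smallest two-sided p of 0.1. CPM uses library totals, and log2 CPM for profiles a prior count of 2. Exon lengths and gene positions came from GENCODE 44 lifted to GRCh37 and promoter windows from RefSeq on GRCh38.p14. No 2 libraries of a group agreed within counting error, by a chi-square divided by its degrees of freedom of 1.41 to 2.78. The scripts were tested on simulated data.

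The channel genes and lists were chosen with earlier results of these data known. The text names the 10 channel genes, IRS2, the 3 largest rises and 3 largest falls past the threshold in each list, other family genes with at least 10 counts, and the 5 profiles nearest to CACNA1E. Marker genes, the neighbouring genes and family genes without a count were named outside this rule. Alternatives were DESeq2, upper-quartile or library-size scaling; no filter or a minimum mean count of 50; DESeq2 1.42.0 with its Wald test; limma 3.58.1 voom; thinned counts; longest transcripts; a replicate block; and leaving out each library.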

Additional observations from a re-analysis of the deposited data

How the results depend on the processing

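No direction of a named gene was reversed under any alternative. For the 8 tested channel genes, 108 of 117 values kept their side of the threshold, with 8 weaker (all of CACNB1) and 1 past the threshold (CACNA1H). The log2 fold change of CACNB1 was 0.38 with upper-quartile factors, 0.37 with library size alone, 0.40 in DESeq2's Wald test and 0.31 in thinned counts, and ran from 0.27 to 0.49 over fits without 1 library. That of CACNA1H ran from -0.71 to -0.43 over those fits. For these 33 other genes, 447 of 487 values kept their side and 40 were weaker. DESeq2's Wald test called 1 of the other channel subunits (2 in edgeR), 0 channel partners (3), 6 genes of calcium-dependent signalling (10) and 6 of regulated secretion (10), and the cause was not tested. Channel partners ran from 0 to 3 over fits without 1 library. With longest transcripts in place of exon unions, CACNA1E held 30.5% of the pore-forming class in knockdown. All genes past the threshold numbered 5329, against 3890 with the Wald test and 5722 without the filter. Library size alone gave 40.8% of calls higher, against 50.2%.

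Replicate numbers come from the titles and are shared by the groups. Libraries that share a number deviated from their group means with correlations of 0.0447, -0.0112 and -0.0981, and 1 of 6 libraries correlated best with its own number, so the numbers are not read as pairs. With the replicate block 4862 genes passed, CACNA1E had a log2 fold change of 2.16 and CACNB1 of 0.41, no call among the channel genes was lost or gained, and RIMS2 and TRPV4 lost theirs. Depth limits CACNA1D and CACNA1A, which were too low to test.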

Other observations

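Neighbours of the channel genes on the chromosome were examined within 500 kb in GRCh37, as a description. Over all tested genes 19.3% were higher and 19.2% lower. Around CACNA1E, 1 of 6 tested neighbours passed the threshold, STX6, at 64.2 ± 3.70 CPM in control and 82.2 ± 1.23 in knockdown (n = 3 each, SD; a log2 difference of 0.39 ± 0.05 SE, edgeR adjusted p 1.78e-06). CACNA2D1 had 1 tested neighbour, PCLO, which encodes the presynaptic protein piccolo and lies 310 kb away. PCLO fell from 3.05 ± 1.04 to 0.9998 ± 0.152 CPM (n = 3 each, SD; a log2 difference of -1.58 ± 0.28 SE, edgeR adjusted p 0.000185), a difference close in size to that of CACNA2D1. Around CACNA2D2, 8 of 27 tested neighbours were lower and 1 was higher. Around CACNA1C, 5 of 15 were higher and 1 lower, with CACNA2D4 at 52.1 kb and TULP3 at 179 kb, the latter with a log2 fold change of 1.35 ± 0.06 (SE; edgeR adjusted p 2.09e-12). The remaining windows were mixed. Around CACNA1H, 6 of 31 were higher and 6 lower, and around CACNB3, 3 of 18 were higher and 3 lower. CACNB1 had 3 higher and 2 lower of 16, and CACNB4 had 1 higher and 0 lower of 5. CACNA1A had 3 higher and 8 lower of 33. CACNA1D, itself lower in CPM, had 3 higher and 1 lower of 11. A link between the channel genes and their neighbours was not tested.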
